A study of Solanum lycopersicum x Solanum pennellii and Solanum lycopersicum with 7 samples.

Results

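The M82 leaf library held 2475 heterozygous single-nucleotide variants (SNVs) on the 11 numbered chromosomes other than chromosome 8, among 48455 variant records in all. M82 is the cultivated tomato into which segments of the wild Solanum pennellii were bred to make the introgression lines, and the labels give this library as the control, taken from leaves of plants grown in a field. The series also holds 3 libraries of the introgression line IL2-6 and 3 of IL3-2, which come as gene counts and were not used here. There is 1 M82 library, so no value has a replicate and no difference was tested. The labels do not say how many plants it came from. Intervals are exact Clopper-Pearson 95% intervals over reads or records and cover counting error only, since reads are not independent molecules and neighbouring records share reads. The file holds no gene levels, so the leaf label could not be checked against marker genes.

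A heterozygous call means that the reads over a position carry the base of the assembled genome and another base. Tomato is largely self-fertilising, and plants of an inbred line carry the same allele on both chromosome copies at most loci. Reads of both bases can nevertheless be seen where a plant is still segregating, where reads of near-identical gene copies are placed on 1 of them, where the RNA is edited, or where a read end is aligned wrongly. Reads that fit several gene copies of the assembled genome lower the mapping quality and can raise the depth at a place. Copies that the assembled genome holds only once need not lower it, so a high mapping quality does not show a single copy. Editing of a transcript gives 1 kind of base change. In plants the best known RNA editing is the change of cytidine to uridine in transcripts of the chloroplast and mitochondrion, which is read as C-to-T on the transcript's strand. Adenosine to inosine editing, which is read as A-to-G, is known mainly from animals and from transfer RNA.

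The records were chosen by a variant quality of at least 30, a depth of at least 10 reads, no insertion or deletion, and a genotype other than homozygous for the alternate base. On these chromosomes 12704 heterozygous SNVs of any quality were listed, of which 3911 had the quality and 2475 had the depth as well. All 2475 carried the same heterozygous genotype, and they made up 26.2% of the 9441 SNVs past the same minimums, beside 6966 homozygous ones. The genotype was called from the reads of both bases, so the alternate read shares that follow describe what was chosen and are no finding of their own.

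Records on both sides of the borders were much alike. The records with a quality of exactly 30 included A582295G, A53646753G and C69615569T on chromosome 1, where each name gives the reference base, the position counted from 1 at the start of the chromosome in the SL2.50 build, and the alternate base. Each of them rested on 3 alternate reads, among 12, 11 and 11 reads. Just outside, with a quality of 29, lay T79328772C on chromosome 1 with 5 alternate reads of 26, G3440975C on chromosome 2 with 3 of 19 and C6102907T on chromosome 2 with 10 of 81. The 142 records at a depth of 10 had a median alternate share of 41.4%, and the 160 excluded records at a depth of 9 had 44.4%. The 154 records with a quality of 30 up to 35 had a median share of 21.4%, the same as the 185 excluded records with a quality of 25 up to 30.

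The alternate base was usually the minority base. The alternate read share, the percent of the high-quality reads at a position that carry the alternate base, had a median of 35.7% (quartiles 25% and 56.7%, range 12.1% to 92.3%, n = 2475 records). The most populated range was 20% to 30%, with 680 records (27.5%), and 30% to 40% followed with 466 (18.8%). From 40% to 60% there were 286 and 208 records, with no rise around an equal share of 50%. A smaller rise stood at 80% to 90%, with 190 records against 156 between 70% and 80%. Between 10% and 20% there were 271 records (10.9%), against 174 of the 492 heterozygous SNVs of chromosome 8 past the same minimums (35.4%), whose median share was 24.3% (quartiles 17.6% and 39.2%).

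**Figure D1:**
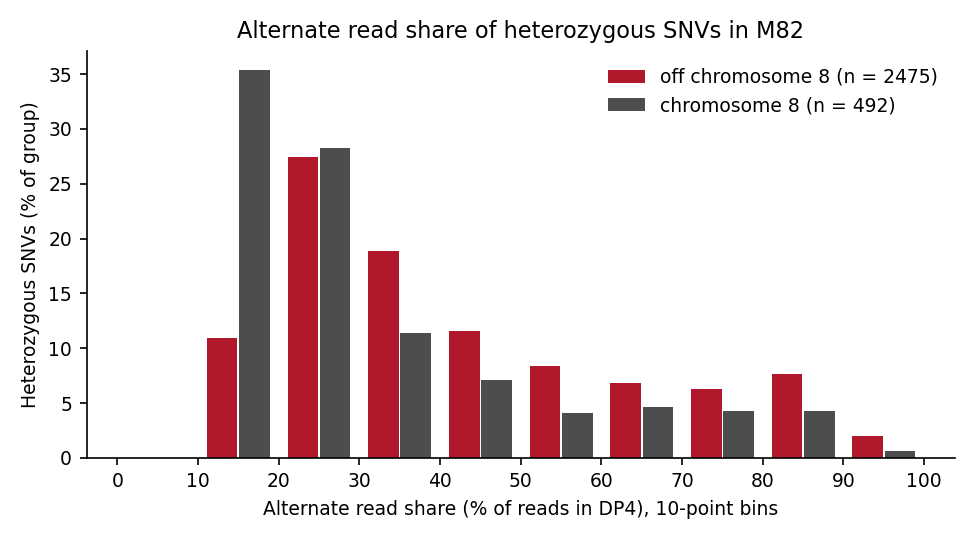
Percent of heterozygous SNVs (y axis) by alternate read share in 10-point bins (x axis, % of high-quality reads), for the chromosomes other than 8 (red, n = 2475) and chromosome 8 (grey, n = 492). The red bars peak at 20% to 30% with 27.5% of the records, and the grey bars peak at 10% to 20% with 35.4%.

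Depth decided how many of these shares could be told from 50%. Over all 2475 records the interval of the share included 50% in 1316 (53.2%), lay wholly below it in 831 (33.6%) and wholly above it in 328 (13.3%). Of the 694 records with fewer than 15 reads, 635 (91.5%) included 50% and none lay wholly below. With 3 alternate reads of 14 the interval already reached 50.8%. Records with 3 or more alternate reads could therefore not lie wholly below at this depth. Where 60 to fewer than 150 reads were counted, 70 of 338 records (20.7%) included 50% and 213 (63.0%) lay wholly below. With at least 150 reads, 16 of 169 records (9.47%, interval 5.51% to 14.9%) included 50%, 112 (66.3%) lay wholly below and 41 (24.3%) wholly above. So in the best measured records a share apart from 50% was the usual case, in either direction but more often below.

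**Figure D2:**
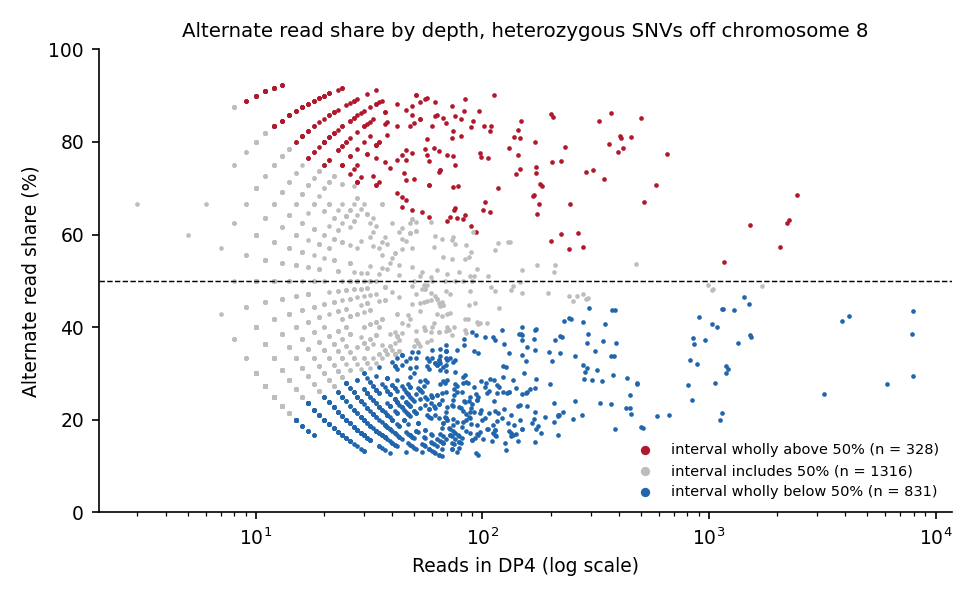
Alternate read share (y axis, %) against the number of high-quality reads (x axis, log scale) for each of the 2475 heterozygous SNVs off chromosome 8. Colours show records whose exact 95% interval lay wholly above 50% (red, n = 328), included 50% (grey, n = 1316) or lay wholly below 50% (blue, n = 831), and grey points become rare past 150 reads.

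The median share depended on the quality minimum. A variant quality generally grows with the number of alternate reads. Under a quality minimum of 100 the median share was 50% over 1376 records, while the share of records whose interval included 50% was 51.5%, close to the 53.2% above. No record had a share under 12.1%, so any minor base present at a lower level was outside what these records can show.

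The deepest records showed unequal shares most exactly. The record with most reads listed was T48715568C on chromosome 2, with 3475 alternate reads of 7985, a share of 43.5% (interval 42.4% to 44.6%). T48716102A, on the same chromosome, had 2350 alternate reads of 7972 (29.5%, 28.5% to 30.5%), and T48716042C had 3024 of 7839 (38.6%, 37.5% to 39.7%). These 3 records are close together, and their intervals do not overlap. The total depths listed for them, 7998, 7998 and 7995, lie together just under a round number, so a limit on the reads taken per position may have been reached there. The file does not record such a limit, and the true depth of these records may be higher than listed. On chromosome 4, C58016999T had 1703 of 6122 reads (27.8%, 26.7% to 28.96%) and A58016837T had 1759 of 4141 (42.5%, 41.0% to 44.0%).

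At T48715568C the reference and alternate bases were both read on both strands, but in different proportions. The alternate base was on 1778 forward and 1697 reverse reads, and the reference base on 3757 forward and 753 reverse reads. The caller's own p-value for this strand difference was 5.6e-211 in the deposited file. At the neighbouring T48716102A the alternate base was on 1617 forward and 733 reverse reads and the reference base on 4036 forward and 1586 reverse reads, so the strands were much closer there.

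In all, 32 records had at least 1000 reads, and they fell into 8 places when records up to 10000 bases apart were joined. Their shares ran from 20.04% to 68.5% with a median of 41.9%, and 23 intervals lay wholly below 50%, 6 wholly above and 3 included it. A stretch of chromosome 6 from 36439 to 37674 held 11 of these records, with shares of 20.04% to 63.1%. Another on chromosome 6, from 4380797 to 4381682, held 5, with shares of 21.5% to 62.0%. On chromosome 12 the 2 records between 2364685 and 2364691 had shares of 62.6% and 68.5%. The shares lay closest together on chromosome 1, where the 3 records from 90764660 to 90772965 had 43.6% to 48.3%.

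Among records with at least 100 reads (n = 260), the highest shares were at C49338762A on chromosome 6, with 11 reference reads of 112 (90.2%), C59153091T on chromosome 4, with 51 of 368 (86.1%), and C4380109T on chromosome 12, with 28 of 200 (86.0%). The lowest were at T5382810G on chromosome 3, with 17 alternate reads of 127 (13.4%), G34496623A on chromosome 2, with 19 of 126 (15.1%), and G52527870T on chromosome 3, with 26 of 171 (15.2%). Their intervals all excluded 50%, which follows from choosing the most extreme shares at this depth. At 3 further records the caller listed 2 alternate bases. They lay at 48331091 and 48331092 on chromosome 2 and at 62352744 on chromosome 4, and only 1 or 2 reads of 10 to 14 carried the reference base.

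The records were not spread evenly. Of 716 windows of 1 Mb that held any variant record on these chromosomes, 385 held a heterozygous SNV. These 385 windows also held 5868 of the 6966 homozygous SNVs (84.2%), so those were concentrated there too. The 20 windows richest in heterozygous SNVs held 626 of the 2475 (25.3%). The richest window, 64000001 to 65000000 on chromosome 10, held 54. Of these, 44 lay in a stretch of 8055 bases from 64626250 to 64634304, next to 3 homozygous SNVs. In that stretch the shares ran from 16.5% to 89.3% with a median of 55.5%, 23 records lay above 50% and 20 below, and every record had the highest mapping quality in the file, 50. Mapping quality scores how surely a read belongs at its place, and reads that fit several places score low.

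Other rich windows differed in their mapping quality. In the window 39000001 to 40000000 on chromosome 12, 20 of 42 records lay between 39349692 and 39356639, and all 20 had a mapping quality under 50. Their median share was 32.1%. The window 38000001 to 39000000 on chromosome 2 held 40 records, 20 of them between 38700033 and 38707561, where 5 had a mapping quality under 50, the median share was 40.6% and no homozygous SNV was listed. Chromosome 1 had 45 records between 97000001 and 98000000, where a stretch of 11 from 97294625 to 97300486 had a median share of 68.8% and 5 records with a mapping quality under 50. It had 39 in its first 1000000 bases, where 12 lay between 904108 and 904404, all with a mapping quality of 50. Of these 5 stretches, all records were under 50 in 1, some in 2 and none in 2.

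At the scale of a sequenced fragment the clustering was plain. When records no more than 100 bases apart were joined, 701 of 2475 (28.3%, 26.6% to 30.1%) were in clusters of 3 or more, 750 were in pairs and 1024 stood alone. The share in clusters was 28.3% for these SNVs, against 19.6% (18.7% to 20.6%) for the 6966 homozygous SNVs of the same chromosomes, although the homozygous ones were more numerous and so had more neighbours to join. Heterozygous SNVs of chromosome 8 had 19.3% (15.9% to 23.1%) in clusters. With a gap of at most 50 bases the share was 19.2%, and with 300 it was 40.2%. The 171 clusters had a median length of 79 bases, and 95 of them had 3 members, 37 had 4, 20 had 5 or 6, and 19 had 7 to 12.

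Most heterozygous SNVs had no homozygous SNV close by. A homozygous SNV lay within 100 bases of 334 of the 2475 heterozygous records (13.5%, 12.2% to 14.9%), and within 1000 bases of 669 (27.0%). An insertion or deletion lay within 10 bases of 38 (1.54%, 1.09% to 2.10%), against 52 of the 6966 homozygous SNVs (0.746%, 0.558% to 0.978%). Few heterozygous records were thus next to a listed insertion or deletion.

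The 6 largest clusters show how the shares ran within a short stretch. The cluster from 904108 to 904404 on chromosome 1 held 12 SNVs at 26 to 109 reads. Its first 5 shares were 39.4%, 38.4%, 32.8%, 36.8% and 33.3%, the sixth was 48.6%, the next 3 were 28.3%, 21.7% and 13.7%, and the last 3 were 50%, 48.1% and 60.8%. The interval of the ninth, 6.77% to 23.8%, did not overlap that of the last, 46.1% to 74.2%. A cluster with 12 SNVs on chromosome 11, from 13735871 to 13736260, had shares of 17.4% to 39.1% over its first 7 records and 40.6% to 52.6% over its last 5. In each of these 2 clusters 5 intervals lay wholly below 50% and 7 included it.

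Other clusters alternated. From 36305369 to 36305556 on chromosome 1, the 9 shares in order were 72.7%, 31.3%, 19.2%, 70.4%, 33.3%, 81.3%, 17.4%, 64.3% and 69.2%. They fall into a lower set of 17.4% to 33.3% and a higher set of 64.3% to 81.3%, at 11 to 32 reads. At this depth 6 of the 9 intervals included 50%, 2 lay wholly below it and 1 wholly above. From 97364174 to 97364506 on chromosome 1, the shares were 17.9%, 25% and 28.9%, then 83.3%, 88.2% and 75.9%, then 39.3%, 38.5% and 21.4%. Here 3 intervals lay wholly below 50% and 3 wholly above.

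The remaining large clusters kept mostly to 1 side. From 81753559 to 81753920 on chromosome 1, all 9 shares lay between 16.3% and 36.5%, and 8 intervals lay wholly below 50%. From 4379923 to 4380166 on chromosome 12, 7 of 9 intervals lay wholly above 50%, with shares of 63.6% to 86.0%, and the other 2 shares were 45.7% at 35 reads and 33.3% at 15 reads. In 5 of the 6 clusters every record had a mapping quality of 50, and in the chromosome 12 cluster the lowest was 48.

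**Figure D3:**
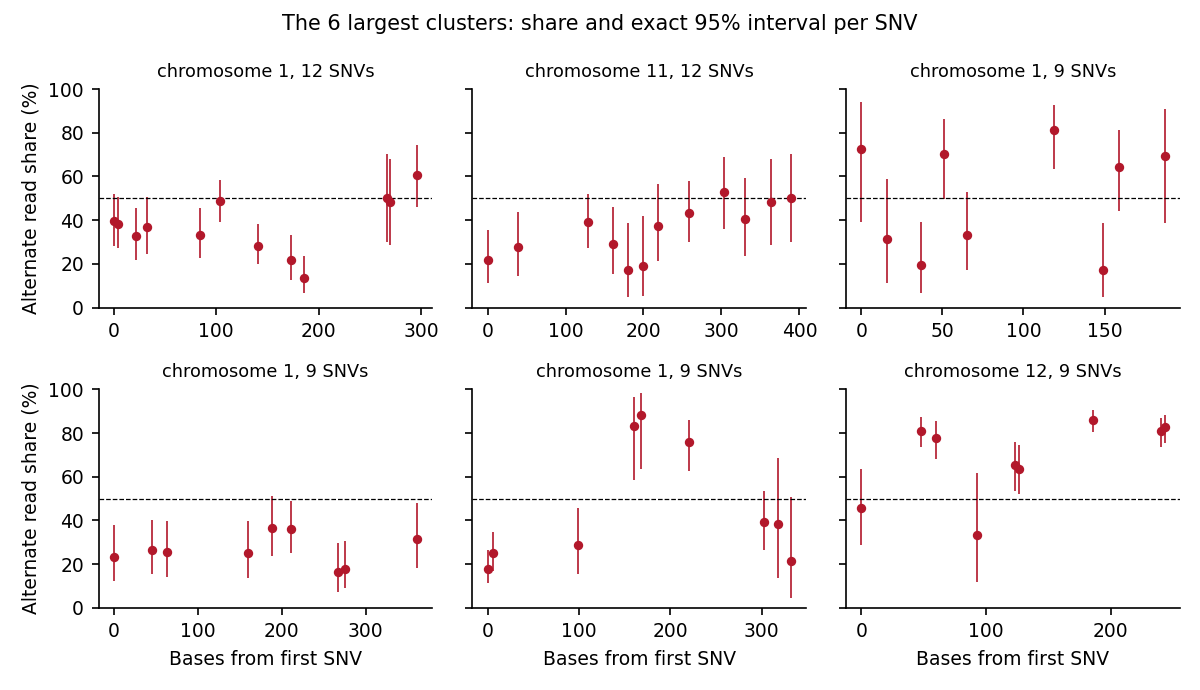
Alternate read share (y axis, %) with its exact 95% interval against the distance in bases from the first SNV of the cluster (x axis), for the 6 clusters with most members. Dashed lines mark 50%, and shares change over short distances, most widely in the chromosome 1 cluster with 9 SNVs that runs from 17.9% to 88.2%.

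Over all 171 clusters, the difference between the highest and the lowest share had a median of 24.9 points (quartiles 13.5 and 40.05). The standard deviation of the share within a cluster had a median of 12.3 points, against 19.8 points over all records in clusters. All shares lay below 50% in 59 clusters and above it in 15. In the other 97 they lay on both sides of 50% or reached exactly 50%. In 23 clusters (13.5%) at least 1 interval lay wholly below 50% and at least 1 wholly above.

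Neighbouring records resembled each other most when they were a few bases apart. The absolute difference in share had a median of 2.79 points in 136 pairs on adjacent bases (quartiles 0.33 and 9.31) and 3.798 points in 130 pairs 2 to 5 bases apart. It was 9.42 points at 11 to 20 bases (156 pairs) and 13.4 points at 51 to 100 bases (144 pairs). Pairs more than 10000 bases apart differed by 17.0 points (quartiles 6.92 and 38.5, 1075 pairs). Between 21 and 10000 bases the median changed little, from 11.2 to 13.4 points over 5 classes of distance.

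**Figure D4:**
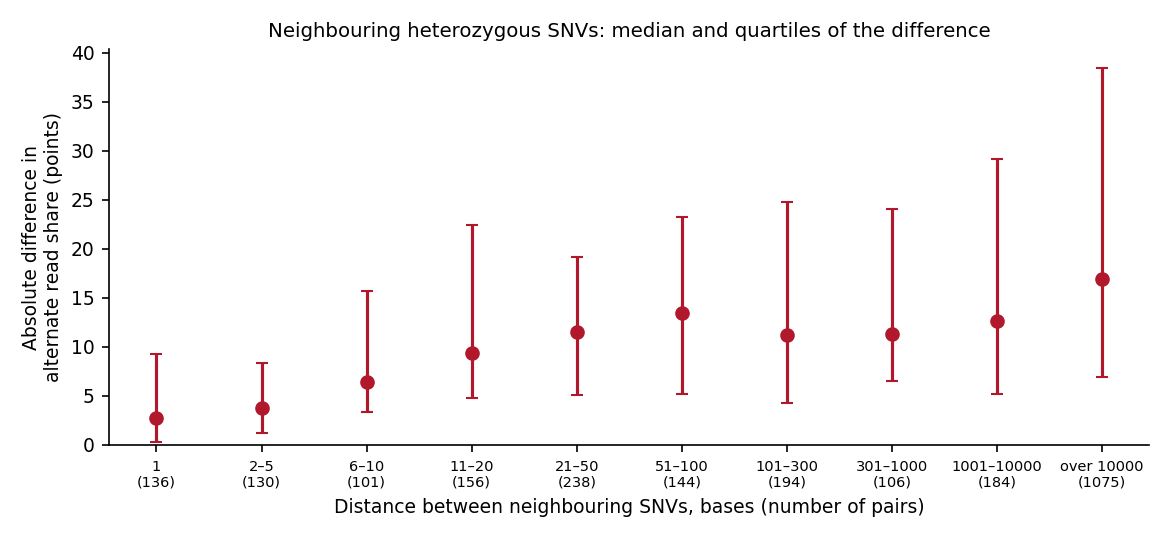
Absolute difference in alternate read share between successive heterozygous SNVs of a chromosome (y axis, percentage points) by the distance between them (x axis, bases, with the number of pairs). Points are medians and bars are quartiles, and the median runs from 2.79 points on adjacent bases to 17.0 points past 10000 bases.

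All 12 base changes were present, and transitions were the most frequent, though less so than among homozygous SNVs. Transitions, the exchanges of A with G or of C with T, made up 1406 of the 2472 records with a single alternate base (56.9%, 54.9% to 58.8%), or 1.32 per transversion. Among homozygous SNVs of the same chromosomes they made up 62.5% (61.4% to 63.7%), or 1.67 per transversion. Heterozygous SNVs of chromosome 8 had 61.2% (56.7% to 65.5%). A-to-G and T-to-C changes together were 29.2% (27.5% to 31.1%) of the heterozygous records, against 33.8% (32.7% to 34.9%) of the homozygous ones. C-to-T and G-to-A changes together were 27.6% (25.9% to 29.4%), against 28.7% (27.7% to 29.8%). These are shares over all records, and subsets of the heterozygous records differed.

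Most changes were about as frequent as their complement. There were 347 C-to-T and 336 G-to-A records, 341 A-to-G and 382 T-to-C records, and 174 A-to-T and 159 T-to-A records. There were also 131 C-to-A and 138 G-to-T records, and 145 A-to-C and 128 T-to-G records. C-to-G and G-to-C were less even, at 85 and 106. Reads aligned in both directions: the forward reads at a record had a median of 50% (quartiles 36.4% and 64.0%), and 2108 records (85.2%) had between 20% and 80% forward reads. Per the labels, libraries of the series were made either with a kit that does not keep strand, read from 1 end, or with one that does, read from both ends. They do not say which kind this library was, and such a balance can arise with either. Without the transcript's strand or an annotation, a C-to-T and a G-to-A change could not be assigned to the transcript, so editing of one of these bases could not be told from the other.

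Records whose reference and alternate bases differed in their distance to the read end had fewer transitions. The deposited file gives, for each record, the caller's p-value for a difference between the reads of both bases in distance to the read end. It was under 0.05 in 816 heterozygous records off chromosome 8 (33.0%, 31.1% to 34.9%). On chromosome 8 it was under 0.05 in 88 of the 492 heterozygous SNVs (17.9%, 14.6% to 21.6%). Homozygous records have few or no reads of the reference base, so they give no like comparison for this p-value. Transitions made up 48.6% (45.1% to 52.1%) of the 813 records with a p-value under 0.05 and a single alternate base, against 60.9% (58.5% to 63.3%) of the other 1659. C-to-T and G-to-A changes were 18.3% (15.7% to 21.2%) of them, against 32.2% (29.9% to 34.5%) of the others. The 32.2% lay above the 28.7% (27.7% to 29.8%) of all homozygous SNVs, but those were not filtered on this p-value. Without the filter the heterozygous records had 27.6% (25.9% to 29.4%), so no excess was seen between unfiltered groups. A-to-G and T-to-C changes were alike, at 30.3% and 28.8%.

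Records on adjacent bases stood further out in the same respects. There were 266 of them (10.7% of all), and their end-distance p-value was under 0.05 in 66.5% (60.5% to 72.2%), against 28.9% (27.0% to 30.9%) of the remaining 2209. Transitions were 42.6% (36.5% to 48.8%) on adjacent bases, against 58.6% (56.5% to 60.6%) elsewhere. Adjacent pairs were 5.52% of successive pairs of heterozygous records off chromosome 8, against 1.83% on chromosome 8 and 1.31% of successive pairs of homozygous SNVs. In 30 of the 136 adjacent pairs both records had the same number of alternate reads and of all reads. The part of read ends in the lower transition share was not tested beyond these values.

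**Figure D5:**
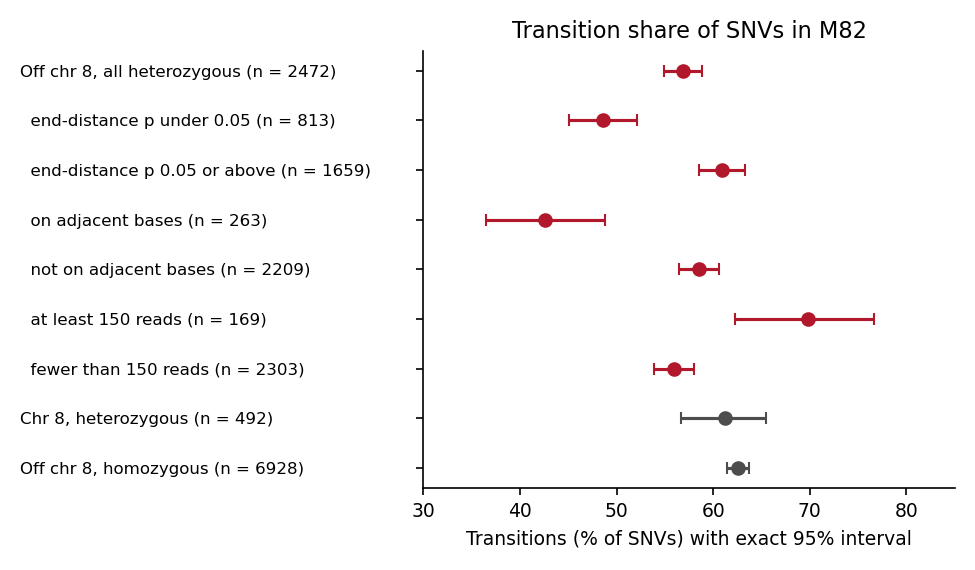
Transitions as a percent of SNVs (x axis) with exact 95% intervals, for all heterozygous SNVs off chromosome 8 and subsets of them (red), and for heterozygous SNVs of chromosome 8 and homozygous SNVs off chromosome 8 (grey). The records on adjacent bases lie lowest at 42.6% and those with at least 150 reads highest at 69.8%.

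Deep records had a higher share of transitions. They were 69.8% (62.3% to 76.6%) of the 169 records with at least 150 reads, against 55.9% (53.9% to 58.0%) of the 2303 with fewer reads. The 169 records fell into 102 groups of neighbours on 10 chromosomes. Homozygous SNVs had 66.6% (62.7% to 70.3%) at the same depth and 62.2% (60.9% to 63.4%) below it. The 2 kinds of transition differed in opposite directions at this depth. C-to-T and G-to-A changes were 35.5% (28.3% to 43.2%) of the deep heterozygous records, against 25.9% (22.5% to 29.6%) of the deep homozygous ones. A-to-G and T-to-C changes were 34.3% (27.2% to 42.0%), against 40.6% (36.7% to 44.6%). The intervals overlap for both kinds of transition. The relation with depth was not gradual, since heterozygous records with 60 to fewer than 150 reads had 52.7% (47.2% to 58.1%).

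In clusters, C-to-T and G-to-A changes were more frequent and A-to-G and T-to-C changes less so. Cluster records had 33.8% (30.3% to 37.4%) of C-to-T and G-to-A, against 25.1% (22.5% to 27.9%) of records that stood alone. For A-to-G and T-to-C the values were 24.1% (20.99% to 27.5%) in clusters and 33.2% (30.3% to 36.2%) alone. An end-distance p-value under 0.05 was found in 19.1% (16.3% to 22.2%) of the cluster records, against 37.5% (34.5% to 40.5%) of those alone. Homozygous SNVs ran the other way, with 23.6% (21.4% to 26.0%) of C-to-T and G-to-A in clusters and 30.6% (29.1% to 32.0%) alone. With only the records whose end-distance p-value was 0.05 or above, the C-to-T and G-to-A share was 35.1% (31.2% to 39.2%) in clusters and 31.6% (28.0% to 35.3%) alone, and these intervals overlap. The A-to-G and T-to-C shares in that subset were 24.0% (20.5% to 27.7%) in clusters and 32.7% (29.03% to 36.4%) alone, and these intervals do not.

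Clusters with a single kind of change were rare. Only 2 of 171 clusters had 1 kind of change, both with 3 G-to-A records. On chromosome 4, G665242A, G665340A and G665412A had shares of 33.3%, 45.2% and 39.1% at 15, 31 and 23 reads. On chromosome 5, G47670437A, G47670446A and G47670453A had shares of 21.7%, 21.1% and 30.8% at 23, 19 and 13 reads, with mapping qualities of 40, 44 and 50. At least 1 transversion was present in 141 clusters (82.5%), and 138 clusters had 3 or more of the possible changes. Of 26 clusters with at least 3 C-to-T or G-to-A records, 7 had only 1 of these 2 directions. Of 16 with at least 3 A-to-G or T-to-C records, 2 did. Clusters of homozygous SNVs were not counted in this way, so these counts have no baseline. Their relation to editing was not tested.

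Mapping quality was at the top of its scale for most records. It was 50 in 2129 of the heterozygous records, 40 to 49 in 286 and 22 to 39 in 60. It was under 50 in 13.98% (12.6% to 15.4%) of them, against 10.6% (9.85% to 11.3%) of homozygous SNVs. It was under 40, however, in 2.42% (1.85% to 3.11%), against 3.86% (3.42% to 4.34%). Heterozygous SNVs of chromosome 8 lay lower at both limits. They had 7.32% (5.18% to 9.99%) under 50 and 0.407% (0.0493% to 1.46%) under 40. Off chromosome 8, the heterozygous records with a lower mapping quality had higher shares and more reads. Median shares and reads were 44.8% and 36.5 under 40, 38.4% and 30 from 40 to 49, and 34.6% and 23 at 50. Clusters held 26.7% (16.1% to 39.7%) of the records under 40, 35.7% (30.1% to 41.5%) of those at 40 to 49 and 27.4% (25.5% to 29.3%) of those at 50, so the share in clusters did not follow mapping quality in 1 direction.

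Among the 32 records with at least 1000 reads, 19 had a mapping quality under 50 (59.4%). They lay in only 8 places, and 17 of the 32 were on chromosome 6. The 59.4% thus describes these few places and is no rate for deep records in general. The median depth, in contrast, was no higher among heterozygous records, at 24 reads against 26 for homozygous SNVs, and 6.83% (5.87% to 7.89%) had at least 150 reads, against 8.80% (8.14% to 9.49%). Of the 8 places with at least 1000 reads, 4 had records with a mapping quality of 49 or less and 4 had 50 throughout. Whether gene copies were merged at any of these records was not tested.

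Reads of both bases also differed in strand in part of the records. The caller's p-value for strand was under 0.05 in 447 heterozygous records off chromosome 8 (18.1%, 16.6% to 19.6%). On chromosome 8 it was under 0.05 in 62 of the 492 heterozygous SNVs (12.6%, 9.80% to 15.9%). Off chromosome 8, 859 records had at least 10 reads of each base. There the percent of forward reads differed between the bases by a median of 15.2 points, and by more than 30 points in 189 (22.0%). All alternate reads were on 1 strand in 90 of 1163 heterozygous records with at least 10 alternate reads (7.74%, 6.27% to 9.43%). Among homozygous SNVs with at least 10 alternate reads this was so in 276 of 6610 (4.18%, 3.71% to 4.69%). These classes were not matched for numbers of alternate reads.

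Heterozygous SNVs were found on every one of the 11 chromosomes, from 148 on chromosome 10 to 376 on chromosome 1. Homozygous SNVs varied far more between these chromosomes, from 229 to 1657. Chromosome 5 had 201 heterozygous and 1657 homozygous SNVs, and chromosome 4 had 253 and 1355, whereas chromosome 6 had 240 and 269 and chromosome 1 had 376 and 434. Heterozygous SNVs therefore made up 10.8% of SNVs past the minimums on chromosome 5 and 47.2% on chromosome 6, while chromosome 8, with 492 and 215, had 69.6%.

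The alternate share differed somewhat among these chromosomes. Its median ran from 33.1% on chromosome 3 to 40% on chromosomes 10 and 11. The intervals of the medians were 29.1% to 35.7% on chromosome 3 and 36.4% to 43.4% on chromosome 11, and these do not overlap. The 24.3% of chromosome 8, with an interval of 23.1% to 25.6%, lay below all 11. The share of records in clusters ran from 22.9% on chromosome 7 to 35.1% on chromosome 10, where the 44 records of the dense stretch are a large part of the 148. Transitions ran from 52.7% on chromosome 10 to 59.7% on chromosome 9.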

How the data were processed

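One leaf RNA library of M82 was read as its deposited list of variant records. The deposited quality is a score per record, highest at 227, and the other fields used are text: depth, reads by base and strand, mapping quality, genotype and 4 p-values of the caller, as deposited and with their usual meaning for these names. Chromosomes are named for the SL2.50 build. Among the tools in the submitters' processing notes, given with no role, are TopHat2 and SAMtools 1.9. Which program made the variant list is not given in the sources used here.

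Shares used the high-quality reads by base and strand. Records at most 100 bases apart were joined, and 3 or more made a cluster. Medians have order-statistic intervals. Records with 2 alternate bases were left out of base changes. Python 3.11.15, pandas 2.3.3 and scipy 1.17.1 were used, and the calculations were checked on simulated records. Named records were the deepest, the most extreme in share at 100 reads or more, those at the quality border, those with 2 alternate bases, and the 6 largest clusters and 5 richest windows. The very deep stretches, single-change clusters, read-end and adjacent-base comparisons were chosen after values had been seen. The SNVs, rules and lists were chosen with earlier results of these data known. No genome of this build was used, so sequences and genes are not given.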

Additional observations from a re-analysis of the deposited data

How the results depend on the processing

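Of 89 values of 11 results under 11 settings, 68 stayed within the interval of the reported value, or for counts within 1.5 times it. A quality minimum of 100 left 1376 records, with a median share of 50%, a median of 32 reads and a neighbour difference of 6.99 points within 100 bases, against 7.89 as reported. A depth minimum of 30 left 1046, with a median share of 32.5%, 25.4% of intervals including 50%, 30.4% in clusters, a median of 58 reads, 50.4% forward reads and a neighbour difference of 6.82 points. Counting only the first record of each group of neighbours left 1570, with a median share of 33.3% and 21 reads. The share in clusters was 19.2% with gaps of 50 bases, 40.2% with 300 and 33.7% when homozygous SNVs were joined as well. Fewer records by construction apart, the cause was not tested. The setting with end-distance p-values of 0.05 or above, and all settings for strand and for neighbour differences, were added after seeing the data. That end-distance setting gave a median share of 36.7%, 55.2% of intervals including 50%, 60.9% transitions and 32.2% C-to-T and G-to-A changes. Depth minimums on high-quality reads, a mapping quality of at least 40, leaving out records near insertions or deletions, and leaving out chromosome 1 moved none of the values computed under them. No paired analysis was possible because there is 1 library and no test.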

Other observations

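Sequence not placed on a chromosome held 72 heterozygous SNVs past the same minimums, 29.1% of its SNVs. Their median alternate share was 45.2% (quartiles 31.8% and 70.8%) at a median of 23.5 reads. A mapping quality under 50 was found in 13.98% of the 2475 on the numbered chromosomes other than 8, against 20 of these 72 (27.8%, 17.9% to 39.6%). Clusters held 28.3% of the 2475, against 25 of the 72 (34.7%, 23.9% to 46.9%).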
